A study of Homo sapiens with 12 samples.

Results

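The PI3K, AKT and FOXO1 axis was represented by 8 genes of the 60675 Ensembl identifiers counted in each library: the catalytic subunits PIK3CA, PIK3CD and PIK3CG, the regulatory subunit PIK3R1, the adaptor PIK3AP1, the phosphatase INPP5D, the kinase AKT1 and the transcription factor FOXO1. They were found in the files by their GENCODE symbols, and all 8 passed the filter on low counts in both lines. Total RNA had been sequenced from SUDHL6 and SUDHL16, human diffuse large B-cell lymphoma (DLBCL) lines, with 3 libraries of each parental line and 3 of each resistant line, 12 in total. SUDHL6-resistant and SUDHL16-resistant cells were derived from their parental line under rising concentrations of venetoclax (ABT-199), an inhibitor of the anti-apoptotic protein BCL2, until they grew at 10 times the original IC50, and each is a single derived line that was kept in the drug. SUDHL6-parental and SUDHL16-parental cells had not been through this exposure. Nothing in the labels says that the libraries of a group came from separate cultures, so p-values measure only the spread between these libraries. Kit and sequencer differed between the lines, so levels are compared within a line only.

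Class I PI3Ks phosphorylate the membrane lipid PIP2 to PIP3 below an engaged B-cell receptor, and PIP3 recruits AKT to the membrane. Phosphatases such as the INPP5D product SHIP1 remove phosphates from PIP3. Active AKT phosphorylates FOXO1, which then leaves the nucleus, so that much of this pathway is set by phosphorylation and location rather than by mRNA level, and mRNA was the only quantity measured here.

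The SUDHL6 libraries held 33992784 to 40885665 counts and the SUDHL16 libraries 14335460 to 22068221, except for the parental library CE-26 with 4131927. Protein-coding genes took 55.4% of the counts of CE-26 and 84.3% to 90.2% of those of the remaining SUDHL16 libraries. The biological coefficient of variation, the spread between libraries of a group, was 0.0516 in SUDHL6 and 0.468 in SUDHL16, and 0.339 in SUDHL16 without CE-26. CE-26 was the lowest SUDHL16-parental library for 8 of 8 members, where 49.0% of protein-coding genes were lowest in it, and with factors taken from protein-coding genes alone these values were 8 of 8 and 44.1%. The SUDHL16 log2 fold changes of the members are therefore given with and without CE-26. The 6 B-cell markers, MS4A1, CD79A, CD79B, PAX5 and CD22 among them, were counted in every library. Markers of T cells, NK cells, myeloid cells, erythroid cells and fibroblasts summed to between 1.16 and 3.03 CPM (counts per 1000000 counts after scaling between libraries) in SUDHL6, to 221 CPM in CE-26, to 45.3 and 38.6 CPM in the other SUDHL16-parental libraries and to between 12.2 and 25.9 CPM in the SUDHL16-resistant libraries, so that the SUDHL16 groups did not overlap. Of these 15 markers 4 were at 0 in CE-26, 6 to 12 in the remaining SUDHL16 libraries and 8 to 10 in the SUDHL6 libraries, and NKG7 and COL1A1 were at 0 in all 3 SUDHL16-parental libraries. Of the 4 markers tested in SUDHL16 2 were called, DCN lower in resistant cells (from 21.7 to 0.22 CPM, log2 fold change -6.47 ± 0.76, adjusted p = 0.00267) and CD3E higher (from 2.31 to 12.5 CPM, 2.59 ± 0.60, adjusted p = 0.0455), and both were called without CE-26. CD3G (-2.48 ± 1.41, adjusted p = 0.394) and HBB (-3.89 ± 1.60, adjusted p = 0.231) were lower and not called. The T-cell markers CD3D and CD2 were at 0 in every SUDHL16-resistant library. HBB alone was at 147.7 CPM in CE-26. The part of this signal in the SUDHL16 results was not tested.

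None of the 8 genes passed the limits for a call in either line, which were a Benjamini-Hochberg adjusted p under 0.05 in edgeR's quasi-likelihood test and a change of at least 1.5-fold. In SUDHL6 8.96% of 16662 tested genes passed them and in SUDHL16 5.3% of 15708. At an unadjusted p under 0.05 there were 7 of 8 genes in SUDHL6, with 45.2% of all tested genes, and 3 of 8 in SUDHL16 (PIK3CD, PIK3CG and INPP5D), with 19.1%. In SUDHL6 7 of the 8 genes had an adjusted p under 0.05 at any fold, where 37.3% of all tested genes did, and their changes were at most 1.25-fold. In SUDHL16 PIK3CD (2.08-fold) and INPP5D (2.03-fold) were higher in resistant cells but missed the adjusted threshold with all 6 libraries. Without CE-26 these 2 of 8 genes were called, with 10.0% of 16280 tested genes.

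**Figure D1:**
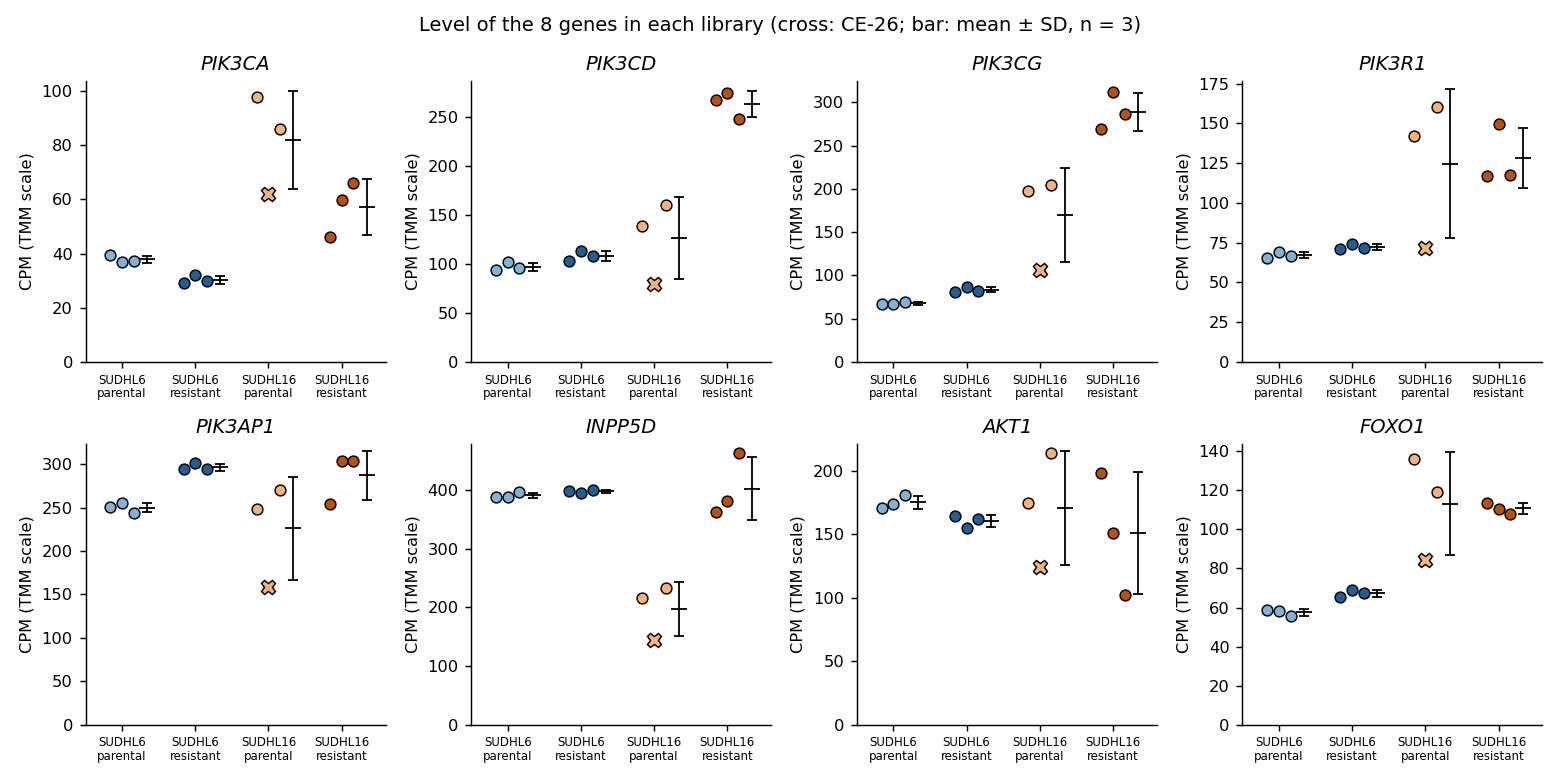
Level of each of the 8 genes in CPM (y axis, TMM scale) in each of the 12 libraries by group (x axis), with the mean and SD of the 3 libraries beside the points and CE-26 drawn as a cross. In SUDHL16 the resistant libraries lie above all parental libraries for PIK3CD, PIK3CG and INPP5D, and the cross is the lowest parental point in each panel.

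PIK3CD encodes p110δ, the catalytic subunit found mainly in leukocytes (chr1:9629889-9729114, plus strand, GRCh38, 24 exons in the canonical transcript). The 250 bases before its RefSeq start at the canonical first exon, chr1:9651481-9651730 on the plus strand of GRCh38.p14, are shown because PIK3CD was one of the 2 members called without CE-26. Those before the start of PIK3AP1, chr10:96720515-96720764 on the minus strand, are shown for contrast, as a member that was not called with or without CE-26. Capitals mark an E-box (CACGTG) or the letters GAGGAA, which extend the GGAA core that ETS factors bind. PIK3CD has neither of these strings, though GGAA itself occurs in its window. The window before INPP5D, the other member called without CE-26, holds GAGGAA. That before FOXO1, which was not called, holds neither string, so the strings did not follow the calls.

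PIK3CD: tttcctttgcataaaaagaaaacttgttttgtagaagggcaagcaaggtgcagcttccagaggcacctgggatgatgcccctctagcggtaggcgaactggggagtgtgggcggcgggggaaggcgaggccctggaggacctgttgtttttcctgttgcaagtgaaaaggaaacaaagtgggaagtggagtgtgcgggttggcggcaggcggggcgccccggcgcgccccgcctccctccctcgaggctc
PIK3AP1: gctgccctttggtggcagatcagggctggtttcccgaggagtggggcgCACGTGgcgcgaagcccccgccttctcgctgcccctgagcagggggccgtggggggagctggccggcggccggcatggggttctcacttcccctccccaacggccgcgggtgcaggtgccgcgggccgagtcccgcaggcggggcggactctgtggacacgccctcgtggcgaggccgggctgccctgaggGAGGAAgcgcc

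Both windows are rich in G and C, at 60.4% for PIK3CD and 75.2% for PIK3AP1. Searched on both strands, CACGTG was found in 6.34% of 35116 RefSeq windows of this length and GAGGAA in 23.6%. The FOXO motif GTAAACA was found in 2.98% of the windows, and among the 14 windows of the 8 genes in 1, before PIK3CA. The motif starts 149 bases before the RefSeq start, inside an annotated exon, and is shown because FOXO1 is itself a member. It is printed with its flanks, as the 27 bases of chr3:179148198-179148224 on the plus strand of GRCh38.p14. Capitals mark the motif, written in its reverse complement.

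PIK3CA: gttcgttgttTGTTTACacgatgtgag

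These matches describe letters only, and binding was not measured.

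In SUDHL16 PIK3CD stood at 138, 79.6 and 160.3 CPM in the parental libraries CE-25, CE-26 and CE-27 and at 267, 274 and 248 CPM in the resistant libraries CE-28, CE-29 and CE-30. Every resistant library was above every parental library, and the lowest value was that of CE-26. Ranges of the groups did not overlap, with the resistant libraries higher, for 3 of the 8 genes (PIK3CD, PIK3CG and INPP5D) and for 14.6% of all tested genes. The mean was 126 ± 41.7 CPM before and 263 ± 13.4 CPM after resistance (SD, n = 3), a log2 fold change of 1.06 ± 0.30 (SE) with an adjusted p of 0.0927. Without CE-26 the change was 0.83 ± 0.21 with an adjusted p of 0.0404, a call at 1.78-fold. In SUDHL6 PIK3CD stood at 93.6, 101.8 and 95.4 CPM in the parental libraries CE-7, CE-8 and CE-9 and at 103, 113 and 108 CPM in the resistant libraries CE-10, CE-11 and CE-12. The groups were close but did not overlap, with a log2 fold change of 0.16 ± 0.04 and an adjusted p of 0.00639. From bulk RNA, a change in the share of cells that express a gene and a change in the RNA per cell cannot be told apart. The B-cell markers, summed, were also higher in the SUDHL16-resistant libraries, at 3731 to 3933 CPM against 3467 and 3479 in CE-27 and CE-25 and 2334 in CE-26, and their part in these differences was not tested.

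PIK3CD overlaps CLSTN1, PIK3CD-AS1 and PIK3CD-AS2, which lie on the opposite strand, over 189, 1977 and 15179 bases. Whether counting used the strand is not given in the sources used here, so reads of these genes and PIK3CD cannot be told apart within these stretches. CLSTN1 was at 158 ± 43.3 CPM in SUDHL16-parental and 229 ± 2.39 CPM in SUDHL16-resistant cells, and its log2 fold change of 0.54 ± 0.28 was not called (adjusted p = 0.343), nor was that of 0.35 ± 0.20 without CE-26 (adjusted p = 0.358). PIK3CD-AS1 reached at most 150 counts in a library. It stood at 0.22, 3.44 and 0.43 CPM in the parental and at 2.14, 3.53 and 6.38 CPM in the resistant SUDHL16 libraries, so that the parental library CE-26 lay within the resistant range and the gene was not called (log2 fold change 1.82 ± 1.07, adjusted p = 0.411). Without CE-26, the setting in which PIK3CD was called, PIK3CD-AS1 was called higher as well (3.61 ± 0.75, adjusted p = 0.0196), against 4 and 7 counts in the remaining parental libraries. PIK3CD-AS2 was at 1.81 ± 1.65 CPM in the parental and 1.77 CPM in the resistant SUDHL16 libraries.

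INPP5D encodes SHIP1, the 5-phosphatase that turns PIP3 into PI(3,4)P2 and restrains B-cell receptor signalling (chr2:233059967-233207903, plus strand, 27 exons). In SUDHL16 it stood at 216, 145 and 233 CPM in CE-25, CE-26 and CE-27 and at 363, 382 and 464 CPM in the resistant libraries. The resistant libraries were all higher, and CE-26 was again the lowest. The group means were 198 ± 46.5 and 403 ± 53.5 CPM (SD, n = 3), a log2 fold change of 1.02 ± 0.29 with an adjusted p of 0.083. Without CE-26 it was 0.86 ± 0.22 with an adjusted p of 0.043, a call at 1.81-fold. In SUDHL6 the gene was at 389, 388 and 397 CPM in parental and 399, 396 and 401 CPM in resistant libraries. These ranges overlapped, and INPP5D was the only one of the 8 genes without an adjusted p under 0.05 in SUDHL6 (log2 fold change 0.03 ± 0.02, adjusted p = 0.271).

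PIK3CG encodes p110γ, the catalytic subunit that acts below G protein-coupled receptors (chr7:106865278-106908980, plus strand, 11 exons). In SUDHL16 the parental libraries stood at 197, 107 and 205 CPM and the resistant libraries at 269, 312 and 287 CPM. The groups did not overlap, and the gap to the nearest parental library was smaller than for PIK3CD. The log2 fold change was 0.77 ± 0.31 with an adjusted p of 0.217, and 0.54 ± 0.20 with an adjusted p of 0.147 without CE-26, so that PIK3CG was not called either way. In SUDHL6 it stood at 66.9, 66.6 and 69.1 CPM in parental and 81.4, 86.8 and 82.5 CPM in resistant libraries. The resistant libraries were all higher, and the log2 fold change of 0.31 ± 0.03 had an adjusted p of 7.65e-06.

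PIK3CA encodes p110α, the broadly expressed catalytic subunit (chr3:179148114-179240093, plus strand, 21 exons). It was lower in the resistant cells of both lines, the opposite direction to PIK3CD and PIK3CG. In SUDHL6 it stood at 39.5, 36.9 and 37.2 CPM in parental and at 29.1, 31.9 and 29.9 CPM in resistant libraries. The groups did not overlap, and the log2 fold change was -0.32 ± 0.05 with an adjusted p of 0.000256. In SUDHL16 the parental libraries stood at 97.8, 62.0 and 86.0 CPM and the resistant libraries at 46.0, 59.7 and 66.2 CPM. Here CE-26 lay inside the resistant range and the other parental libraries above it, with a log2 fold change of -0.52 ± 0.26 (adjusted p = 0.325), or -0.67 ± 0.22 (adjusted p = 0.103) without CE-26. PIK3CA has a near-identical partial copy elsewhere in the genome, so its counts are uncertain, and it overlaps KCNMB3 on the opposite strand. KCNMB3 held 0.62 to 2.11 CPM in SUDHL6, where it was called lower in resistant cells, the direction of PIK3CA (log2 fold change -1.16 ± 0.26, adjusted p = 0.00324). In SUDHL16 it held 23.7 to 32.5 CPM with no call (-0.09 ± 0.23, adjusted p = 0.884, and adjusted p = 0.876 without CE-26).

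**Figure D2:**
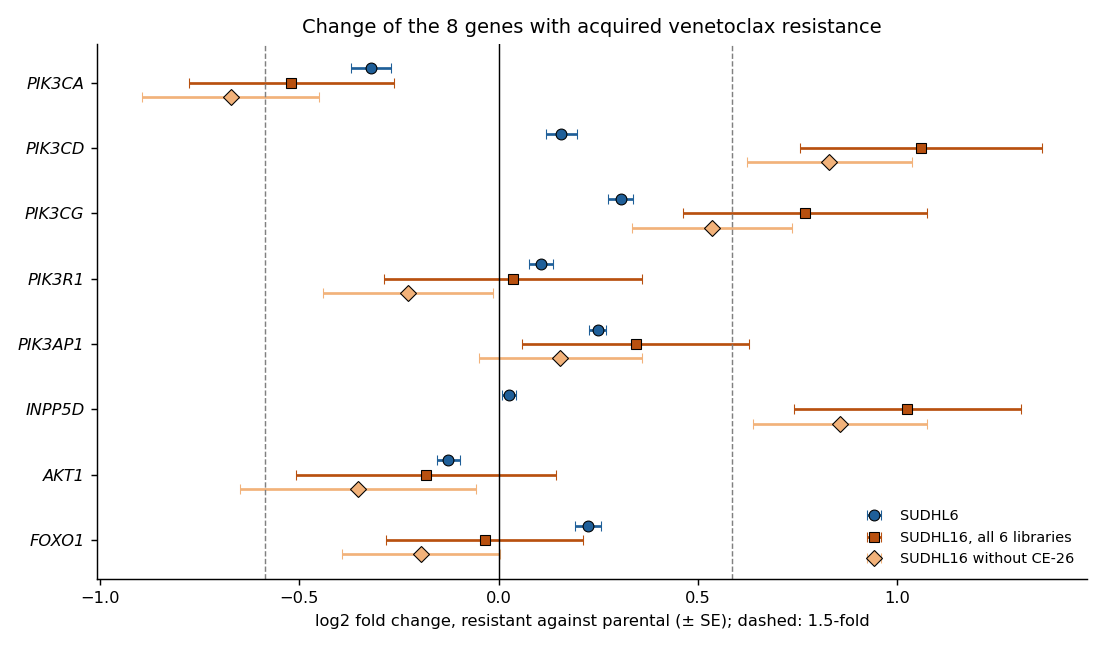
Log2 fold change of resistant against parental cells (x axis, ± SE) for each of the 8 genes (y axis) in SUDHL6, in SUDHL16 with all 6 libraries and in SUDHL16 without CE-26, with dashed lines at 1.5-fold. PIK3CD and INPP5D lie at 1.06 and 1.02 in SUDHL16 and at 0.16 and 0.03 in SUDHL6, and leaving out CE-26 moved all 8 genes to lower values.

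Since the catalytic subunits moved in different directions, their make-up was compared within each library, where the scaling between libraries has no part. Counts were divided by the length of the exons of PIK3CA, PIK3CB, PIK3CD and PIK3CG, where PIK3CB encodes p110β. PIK3CD made up 29.2%, 27.6% and 32.7% of this class I catalytic mRNA in the SUDHL16-parental libraries and 40.7%, 36.8% and 36.0% in the resistant libraries. All resistant libraries were higher, and the difference of 7.97 percentage points had a p of 0.1 in a two-sided exact permutation test, the smallest that 3 against 3 libraries allow. Without CE-26 the difference was 6.85 percentage points (exact permutation p = 0.2, the smallest for 2 against 3). The share of PIK3CA was 11.5%, 11.98% and 9.77% in the parental and 3.90%, 4.46% and 5.35% in the resistant libraries, with no overlap (exact permutation p = 0.1). The share of PIK3CG was 49.5% ± 3.35 in parental and 51.1% ± 0.61 in resistant libraries (SD, n = 3, exact permutation p = 0.8). In SUDHL6 the share of PIK3CD was 38.9% ± 0.93 in parental and 38.5% ± 0.44 in resistant libraries (exact permutation p = 0.8), and the ranges overlapped. There the shares that did not overlap were those of PIK3CG, at 33.4% ± 1.07 and 36.7% ± 0.33, and of PIK3CA, at 8.46% ± 0.47 and 6.01% ± 0.09 (exact permutation p = 0.1 for each).

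**Figure D3:**
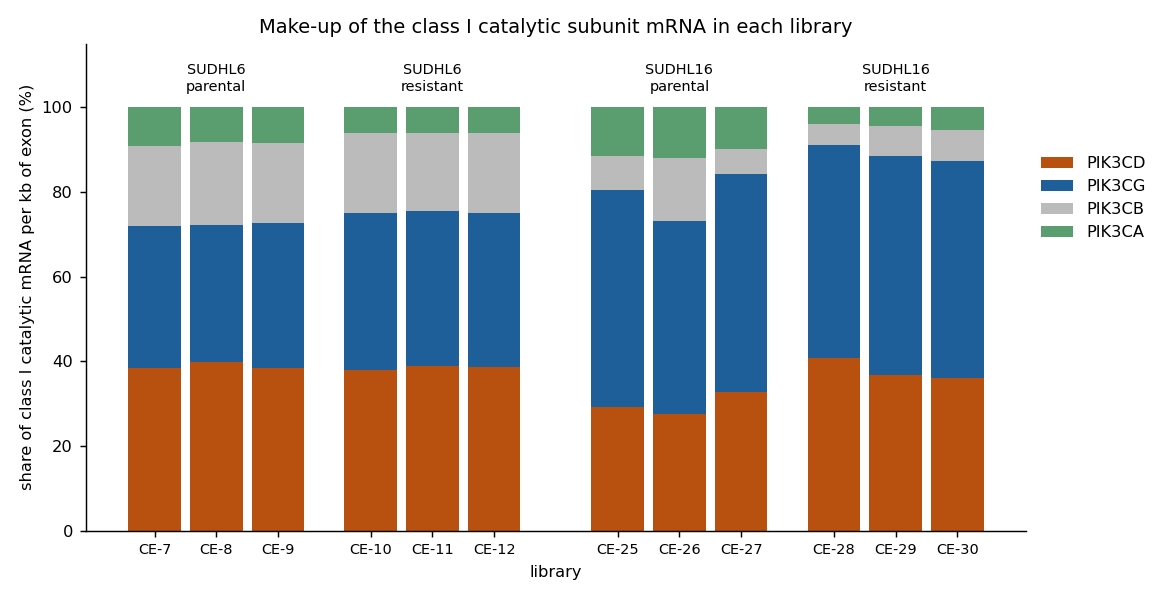
Share of each class I catalytic subunit in their summed level per kb of exon (y axis, %) in each library (x axis), by group. PIK3CD takes 27.6% to 32.7% in the SUDHL16-parental and 36.0% to 40.7% in the SUDHL16-resistant libraries, and 38.0% to 40.0% in SUDHL6.

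PIK3R1 encodes p85α, which binds and steadies the p110 subunits (chr5:68215740-68301821, plus strand, 16 exons). In SUDHL6 it stood at 65.6, 69.2 and 66.4 CPM in parental and 71.1, 74.1 and 71.3 CPM in resistant libraries. The resistant libraries were just above the parental ones, with a log2 fold change of 0.11 ± 0.03 and an adjusted p of 0.0172. In SUDHL16 it stood at 142, 71.6 and 160 CPM in parental and 117, 150 and 118 CPM in resistant libraries. The groups overlapped, and the sign turned with CE-26, from 0.04 ± 0.32 (adjusted p = 0.968) to -0.23 ± 0.21 (adjusted p = 0.606) without it.

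PIK3AP1 encodes BCAP, the adaptor that links the B-cell receptor to PI3K (chr10:96593315-96720514, minus strand, 17 exons). In SUDHL6 it stood at 250, 255 and 244 CPM in parental and 294, 301 and 295 CPM in resistant libraries. The groups lay well apart relative to their spread, with a log2 fold change of 0.25 ± 0.02 and an adjusted p of 1.7e-06. In SUDHL16 it stood at 248, 159 and 271 CPM in parental and 254, 304 and 304 CPM in resistant libraries. The lowest resistant library lay between the parental libraries CE-25 and CE-27, and the log2 fold change of 0.34 ± 0.28 was not called (adjusted p = 0.582), nor was that of 0.15 ± 0.20 without CE-26 (adjusted p = 0.73).

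AKT1 encodes the kinase that PIP3 brings to the membrane (chr14:104769349-104795751, minus strand, 15 exons). In SUDHL6 it stood at 171, 174 and 181 CPM in parental and 165, 155 and 162 CPM in resistant libraries. The resistant libraries were all lower, with a log2 fold change of -0.13 ± 0.03 and an adjusted p of 0.00436. In SUDHL16 it stood at 174, 124 and 214 CPM in parental and 199, 151 and 102.3 CPM in resistant libraries. The values were interleaved (log2 fold change -0.18 ± 0.33, adjusted p = 0.827, and -0.35 ± 0.30, adjusted p = 0.554 without CE-26).

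FOXO1 encodes the transcription factor that AKT keeps out of the nucleus (chr13:40555667-40666641, minus strand, 3 exons). In SUDHL6 it stood at 58.9, 58.2 and 55.7 CPM in parental and 65.6, 68.8 and 67.3 CPM in resistant libraries. All resistant libraries were higher, with a log2 fold change of 0.22 ± 0.03 and an adjusted p of 0.000137. In SUDHL16 it stood at 136, 84.4 and 119 CPM in parental and 114, 111 and 108 CPM in resistant libraries. The resistant libraries lay close together, between CE-26 and the other parental libraries, with a log2 fold change of -0.03 ± 0.25 (adjusted p = 0.958) and of -0.19 ± 0.20 (adjusted p = 0.642) without CE-26.

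In SUDHL6, then, 5 of the 8 genes were higher (PIK3CD, PIK3CG, PIK3R1, PIK3AP1 and FOXO1) and 2 lower (PIK3CA and AKT1) with an adjusted p under 0.05, against 17.7% and 19.7% of all tested genes. The same 7 genes had ranges that did not overlap, as had 47.9% of all tested genes. The median log2 fold change of the 8 genes was 0.13, beside 0.00 over all genes. In SUDHL16 it was 0.19 with all libraries, beside -0.02 over all genes, and -0.02 without CE-26, beside 0.05. When the 12 libraries were fitted together, so that SUDHL6 was tested with the wider spread of SUDHL16, 0 of the 8 genes had an adjusted p under 0.05 in SUDHL6.

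The difference between the changes of the lines was tested as an interaction over the 12 libraries. It passed for 0 of the 8 genes, against 7.16% of 19621 tested genes, and INPP5D and PIK3CD had the lowest p-values among the 8. The log2 change in SUDHL16 minus that in SUDHL6 was 1.02 ± 0.30 for INPP5D (adjusted p = 0.064) and 0.91 ± 0.33 for PIK3CD (adjusted p = 0.138). Without CE-26 it passed for 3 of the 8 genes, against 14.0% of tested genes. These were INPP5D at 0.79 ± 0.17 (adjusted p = 0.00858), PIK3CD at 0.63 ± 0.13 (adjusted p = 0.00942) and FOXO1 at -0.46 ± 0.13 (adjusted p = 0.0352), the last with log2 fold changes of 0.22 in SUDHL6 and -0.19 in SUDHL16, neither of which was called. The single fit shares its spread between the lines, and these SEs are below those of the SUDHL16 changes alone without CE-26 (0.22, 0.21 and 0.20). The spread of SUDHL16 may thus be understated and these p-values too small. Kit and sequencer differed together with the line, and what they add to these differences cannot be told apart from the line itself.

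Within a group the genes were ordered by CPM per kb of exon. In SUDHL6-parental cells INPP5D (45.1 ± 0.54) and PIK3AP1 (43.9 ± 0.93) led, with ranges that overlapped, followed by AKT1 (15.97 ± 0.47), PIK3CD (10.1 ± 0.45), FOXO1 (9.66 ± 0.29), PIK3CG (8.70 ± 0.18), PIK3R1 (4.11 ± 0.12) and PIK3CA (2.203 ± 0.08; SD, n = 3 for each). PIK3CD and FOXO1 overlapped and the remaining neighbours did not. In SUDHL6-resistant cells PIK3AP1 (52.2 ± 0.68) stood above INPP5D (45.9 ± 0.33) without overlap. In SUDHL16-parental cells PIK3AP1 (39.7 ± 10.4) led without overlap and all neighbours below it overlapped. In SUDHL16-resistant cells PIK3CD moved from the sixth place, at 13.2 ± 4.36, to the fourth, at 27.5 ± 1.40, behind PIK3AP1 (50.5 ± 5.03), INPP5D (46.4 ± 6.16) and PIK3CG (37.3 ± 2.82). With the length of the canonical transcript instead, AKT1 lay among the top 3 genes of each group, and PIK3CA stayed last in each. On that length PIK3CD moved only from place 5 in SUDHL16-parental to place 4 in SUDHL16-resistant cells, and INPP5D from place 3 to place 1.

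The genes that stand around the members were then described along the chromosome, without a test. In SUDHL16 9 of 9 other protein-coding genes within 1 Mb of PIK3CG were higher after resistance (median log2 fold change 0.69), as were 33 of 42 within 5 Mb, with a median of 0.53, beside 0.77 for PIK3CG itself. Without CE-26 they were 9 of 9, with a median of 0.87. Around PIK3CD 11 of 19 genes within 1 Mb were higher, with a median of 0.32, and 32 of 55 within 5 Mb, with a median of 0.09. Around INPP5D 3 of 8 within 1 Mb were higher, with a median of -0.05, and 20 of 37 within 5 Mb, with a median of 0.05. Without CE-26 the genes within 1 Mb that were higher numbered 13 of 19 around PIK3CD and 3 of 9 around INPP5D. In SUDHL6 the medians within 1 Mb lay between -0.07 and 0.05 for all 8 members. The part of such regional differences in the values of the members was not tested.

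**Figure D4:**
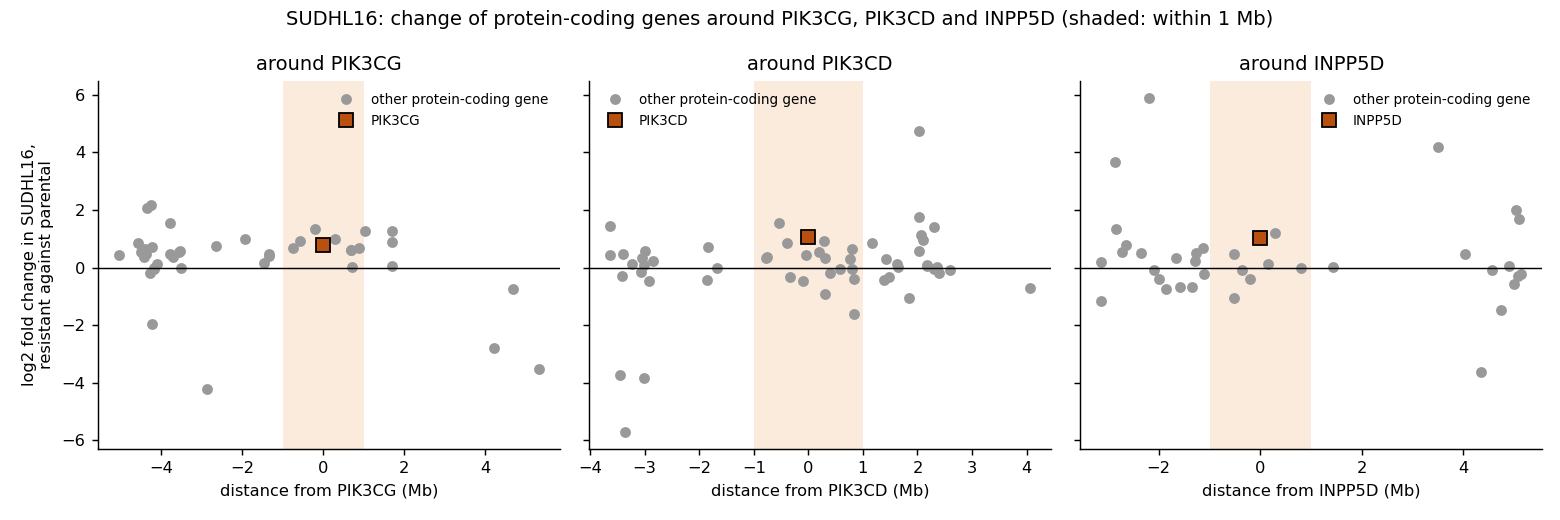
Log2 fold change in SUDHL16 (y axis) of tested protein-coding genes other than the member against their distance in Mb from PIK3CG, PIK3CD and INPP5D (x axis), with the member as a square and the window of 1 Mb on each side shaded. All genes in the shaded window of PIK3CG lie above 0, while those of INPP5D lie on both sides.

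The rest of the pathway was followed in 6 lists. Of 91 list genes tested in SUDHL6, 15 were called, 5 higher and 10 lower, against 8.96% of all tested genes, and the 10 include PIK3R2, for which no direction is drawn. Of 85 tested in SUDHL16, 10 were called, 7 higher and 3 lower, against 5.3% of all tested genes, and 14 of 85 without CE-26, against 10.0%, with all 10 among the 14. In the class I list (PIK3CB, PIK3R2 and others) 1 of 4 genes tested in SUDHL6 was called, PIK3R2, and 0 of 4 in SUDHL16, where 0 of 4 also had an unadjusted p under 0.05. Without CE-26 0 of 4 were called and 3 of 4 had an unadjusted p under 0.05 (PIK3R2, PIK3R5 and PIK3IP1), with 23.3% of 16280 tested genes. PIK3R5 (from 0.70 to 2.45 CPM) and PIK3IP1 (from 3.79 to 9.2 CPM) were higher and were named after their values were seen. No direction is drawn for PIK3R2. PIK3IP1 encodes an inhibitor of PI3K rather than a subunit. The median log2 fold change of the list, PIK3R2 and PIK3IP1 included, was 1.21 without CE-26, beside 0.05 over all genes. With all libraries it was 0.58, beside -0.02. Neither median describes the subunits alone.

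PIK3R2, the gene of the regulatory subunit p85β, stood at 50.5, 56.6 and 37.6 CPM in SUDHL6-parental and at 28.4, 8.54 and 9.77 CPM in SUDHL6-resistant libraries. The resistant libraries were lower, with a log2 fold change of -1.62 ± 0.33 (adjusted p = 0.00183). PIK3R2 lies within ENSG00000268173, a gene on the same strand, whose level was 6.55, 0.83 and 42.3 CPM in the parental and 55.3, 197 and 207 CPM in the resistant libraries. The counts of this pair moved in opposite directions, and summed they were 57.0, 57.4 and 79.9 CPM in parental and 83.7, 205 and 217 CPM in resistant libraries, higher rather than lower. In SUDHL16 PIK3R2 stood at 25.7, 1.03 and 37.7 CPM in parental and 91.7, 70.5 and 44.8 CPM in resistant libraries. ENSG00000268173 stood at 24.5, 43.1 and 17.1 CPM in parental and 0.0, 0.85 and 32.6 CPM in resistant libraries. Summed they were 50.2, 44.1 and 54.8 CPM in parental and 91.7, 71.3 and 77.4 CPM in resistant libraries. How reads were split between them is not given in the sources used here, so no direction is drawn for PIK3R2 in either line.

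At the top of the pathway, 4 of 13 tested genes of the B-cell receptor and adaptor input list were called in SUDHL6. Of these 1 was higher and 3 were lower, against 8.96% of all tested genes called. SYK, a kinase that acts at the receptor, was 201, 196 and 201 CPM in parental and 91.3, 92.3 and 87.3 CPM in resistant libraries. The groups lay far apart, with a 2.21-fold lower level in resistant cells (log2 fold change -1.14 ± 0.03, adjusted p = 1.56e-11). The docking proteins GAB1 and GAB2 were lower as well, GAB1 from 8.16 to 1.44 CPM (-2.50 ± 0.12, adjusted p = 8.65e-09) and GAB2 from 2.36 to 1.34 CPM (-0.81 ± 0.19, adjusted p = 0.00521). CR2, which encodes the complement receptor CD21 of the B-cell coreceptor, was higher, from 0.63 to 2.33 CPM (1.90 ± 0.21, adjusted p = 1.24e-05).

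In SUDHL16 3 of 12 tested genes of this list were called, all higher, against 5.3% of all tested genes. Without CE-26 3 of 12 were called as well, against 10.0%. CR2 was 11.6, 13.1 and 15.6 CPM in parental and 162, 156 and 215 CPM in resistant libraries, and here CE-26 lay between the other parental libraries. This was a 13.2-fold higher level (log2 fold change 3.72 ± 0.27, adjusted p = 0.000494). VAV2, a guanine nucleotide exchange factor, rose from 14.5 to 123 CPM (3.10 ± 0.31, adjusted p = 0.00122). LYN, a Src family kinase of the receptor, rose from 25.1 to 108 CPM (2.11 ± 0.25, adjusted p = 0.00263). SYK, lower in SUDHL6, was at 245 ± 31.1 CPM in SUDHL16-parental and 358 ± 79.3 CPM in SUDHL16-resistant cells without a call (0.55 ± 0.27, adjusted p = 0.327).

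Among the opposing phosphatases 0 of 9 tested genes were called in SUDHL6, against 8.96% of all tested genes, and 1 of 10 in SUDHL16, against 5.3%. At an unadjusted p under 0.05 there were 8 of 9 in SUDHL6, with 45.2% of all tested genes. INPP5K, a 5-phosphatase of the same enzyme class as INPP5D, was the one called in SUDHL16. It was at 11.6 ± 2.35 CPM in the parental and 36.9 ± 11.1 CPM in the resistant libraries (SD, n = 3), with no overlap and a log2 fold change of 1.66 ± 0.31 (adjusted p = 0.0202). Without CE-26 INPP5J, of the same class, was called too (log2 fold change 1.31 ± 0.32, adjusted p = 0.0379), and it was named after its values were seen.

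Of the AKT and mTOR list 1 of 26 tested genes was called in SUDHL6, against 8.96% of all tested genes. In SUDHL16 5 of 25 were called, 2 higher and 3 lower, against 5.3%. TCL1B, of the TCL1 family of AKT coactivators, was 31.1, 46.8 and 61.5 CPM in SUDHL16-parental and 2.08, 1.41 and 2.43 CPM in SUDHL16-resistant libraries. All resistant libraries were far below the parental ones (log2 fold change -4.55 ± 0.38, adjusted p = 0.000668). TCL1A, the fifth called gene of the list and outside the rule for named genes, was named after its values were seen: its mean was 244 CPM in the parental and 93.7 CPM in the resistant libraries (-1.38 ± 0.28, adjusted p = 0.0273). Another gene of that family, MTCP1, was the gene called in SUDHL6, from 5.44 to 2.13 CPM (-1.35 ± 0.14, adjusted p = 9.52e-06). MTCP1 shares part of its length with CMC4 on the same strand, which was 29.6, 31.1 and 30.4 CPM in parental and 19.5, 18.8 and 19.9 CPM in resistant libraries, lower too.

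The SGK kinases, relatives of AKT that also phosphorylate FOXO factors, moved apart in SUDHL16. SGK1 was 17.1, 18.9 and 14.1 CPM in parental and 121, 220 and 114 CPM in resistant libraries, and SGK3 was 24.5, 29.6 and 21.2 CPM in parental and 2.55, 3.01 and 0.98 CPM in resistant libraries. SGK1 was higher in every resistant library (log2 fold change 3.19 ± 0.33, adjusted p = 0.0016) and SGK3 lower in every one (-3.52 ± 0.47, adjusted p = 0.00478). EIF4EBP1, the translation repressor 4E-BP1 that mTOR phosphorylates, rose from 21.3 to 77.1 CPM (1.89 ± 0.32, adjusted p = 0.0126). In SUDHL6 SGK1, SGK3 and EIF4EBP1 differed by at most 1.28-fold and were not called, each in the opposite direction to SUDHL16. The log2 fold changes were -0.36 for SGK1 (adjusted p = 4.09e-06), 0.31 for SGK3 (adjusted p = 0.00182) and -0.09 for EIF4EBP1 (adjusted p = 0.0392).

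**Figure D5:**
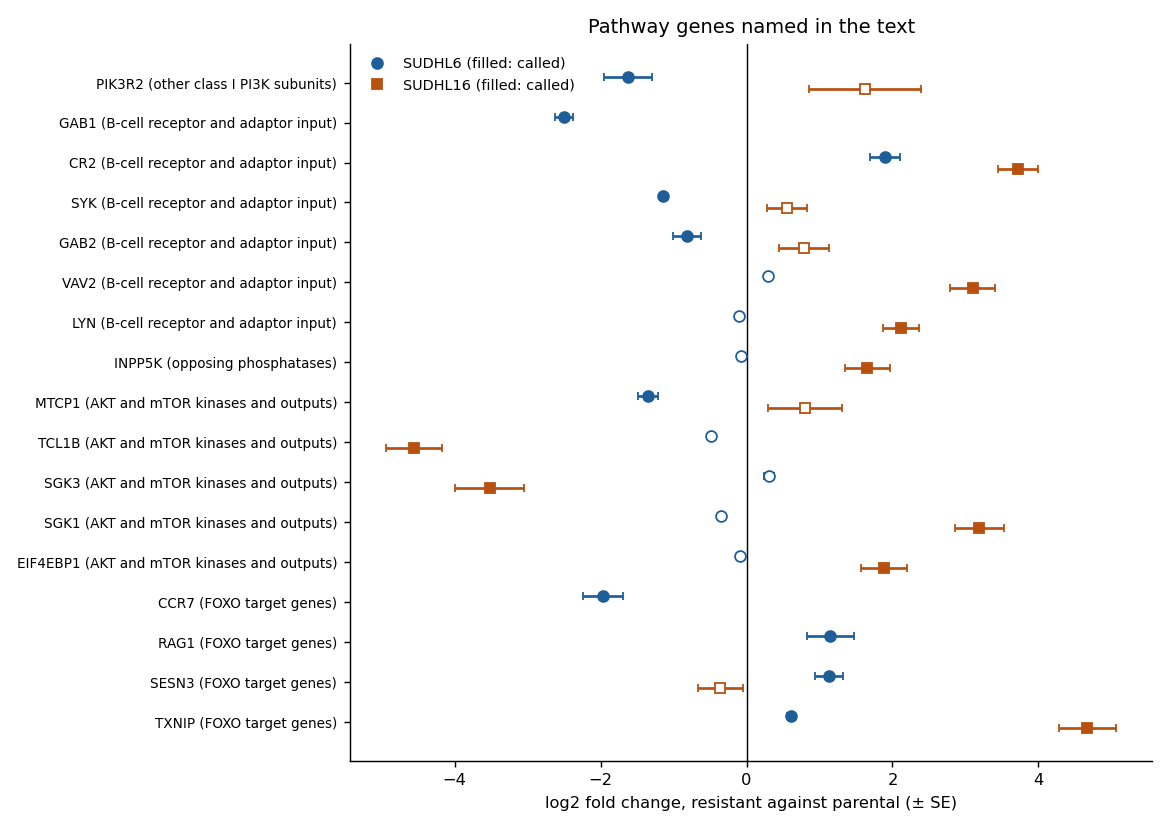
Log2 fold change of resistant against parental cells (x axis, ± SE) for pathway genes chosen by the rule and described in the text (y axis, with their list), in SUDHL6 (circles) and SUDHL16 (squares), filled where called. TXNIP lies at 4.67 and TCL1B at -4.55 in SUDHL16, and GAB1 at -2.50 in SUDHL6.

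Downstream, 0 of 15 tested genes among the FOXO factors and their regulators were called in either line. At an unadjusted p under 0.05 there were 7 of 15 in SUDHL6, with 45.2% of all tested genes, and 2 of 15 in SUDHL16, with 19.1%. Without CE-26 1 of 15 in SUDHL16 was called, against 10.0% of all tested genes. It was YWHAQ, a 14-3-3 protein of the family that holds phosphorylated FOXO in the cytoplasm, lower in resistant cells (log2 fold change -0.88 ± 0.23, adjusted p = 0.0464) and named after its values were seen. Of the FOXO target genes 9 of 24 tested were called in SUDHL6, 4 higher and 5 lower, against 8.96% of all tested genes. In SUDHL16 1 of 19 was called, higher, against 5.3%. Without CE-26 3 of 19 were called, against 10.0% (BBC3, KLHL24 and TXNIP, the first 2 named after their values were seen). The targets did not move one way in SUDHL6, and their median log2 fold change was -0.14, beside 0.00 over all genes. CCR7, the chemokine receptor for entry into lymph nodes, was lower, from 1.61 to 0.41 CPM (-1.97 ± 0.27, adjusted p = 8.8e-05). Further called targets in SUDHL6, named after their values were seen, included 2 activators of apoptosis that act on BCL2 and its relatives. BCL2L11, the gene of BIM, averaged 65.3 ± 0.69 CPM before and 41.4 ± 1.48 CPM after resistance (SD, n = 3, log2 fold change -0.66 ± 0.03, adjusted p = 1.34e-08), and BBC3, the gene of PUMA, was at 7.63 ± 0.43 and 4.32 ± 0.24 CPM (-0.82 ± 0.10, adjusted p = 3.73e-05). INSR, the insulin receptor upstream of PI3K, was at 108 ± 2.58 and 234 ± 2.15 CPM (1.12 ± 0.02, adjusted p = 1.13e-11), and S1PR1, a receptor for sphingosine 1-phosphate, was at 0.32 and 0.05 CPM. In SUDHL16 BCL2L11 (-0.29 ± 0.28, adjusted p = 0.647) and BBC3 (0.96 ± 0.60, adjusted p = 0.449) were not called with all 6 libraries. Without CE-26 BBC3 was called higher, the opposite direction to SUDHL6 (1.89 ± 0.42, adjusted p = 0.0256), and BCL2L11 was not called (-0.41 ± 0.25, adjusted p = 0.386).

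Higher in SUDHL6-resistant cells were SESN3, a stress-induced inhibitor of mTOR complex 1, from 1.39 to 3.03 CPM (log2 fold change 1.13 ± 0.19, adjusted p = 0.000544), and RAG1, the recombinase, from 0.70 to 1.56 CPM (1.15 ± 0.32, adjusted p = 0.0124). RAG1 lost its call when the parental library CE-7 (adjusted p = 0.0517) or the resistant library CE-11 (adjusted p = 0.0778) was left out. TXNIP, which limits glucose uptake and inhibits thioredoxin, was called in both lines. It was 23.6, 23.5 and 24.1 CPM in SUDHL6-parental and 36.6, 34.8 and 37.0 CPM in SUDHL6-resistant libraries (0.60 ± 0.05, adjusted p = 7.53e-07). In SUDHL16 it was 9.15, 8.95 and 9.50 CPM in parental and 171, 172 and 364 CPM in resistant libraries, with CE-26 level with the other parental libraries. Every resistant library was higher, by 25.5-fold on average (4.67 ± 0.39, adjusted p = 0.000628). The FOXO motif was found in 3 of 39 windows of the target genes (7.69%), before BCL2L11, MXI1 and TXNIP, beside 2.98% of all windows.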

How the data were processed

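Total RNA of 12 libraries was analysed. The authors trimmed reads (Trim Galore), aligned them to GRCh38 (HISAT2) and assembled transcripts (StringTie), and deposited whole-number counts per gene without normalization. The counting step, its annotation and its strand setting are not given in the sources used here. Symbols and positions came from GENCODE 44 and promoter windows from RefSeq (GRCh38.p14). Of 60675 identifiers 56558 matched. SUDHL6 libraries were made with NEBNext Ultra II on a HiSeq 4000 and SUDHL16 libraries with Illumina Stranded Total RNA with RiboZero Plus on a NovaSeq 6000.

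Each line was fitted alone on the deposited counts with edgeR 4.0.16 in R 4.3.3 (filterByExpr, TMM, two-sided quasi-likelihood test, Benjamini-Hochberg adjustment over all genes tested). A call needed an adjusted p under 0.05 and at least 1.5-fold. The difference between the lines was an interaction in one fit of 12 libraries. CPM are on the TMM scale of the line, and the SE is of the log2 fold change. Depth was 4131927 to 40885665 counts. Precision is limited by 3 libraries a group, and the smallest exact p is 0.1.

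The members and lists were chosen with earlier results of these data known. Pathway and marker lists were written from general knowledge, and 1 listed FOXO target was not matched. Named were all 8 members and, per list and line, up to 4 called genes with the largest change and a mean of at least 1 CPM. Results of some genes are not reported here. As no member was called, no correlated genes were named. No 2 libraries of a group held identical counts. The script was tested on simulated data. Alternatives were DESeq2 1.42.0, limma 3.58.1 (voom with quality weights), other scalings, filters and fits, and each library left out. Other steps ran in Python 3.11.15 (scipy 1.17.1, numpy 2.4.6, pandas 2.3.3; figures in matplotlib 3.10.9).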

Additional observations from a re-analysis of the deposited data

Results flagged for a closer look

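For 13 of 18 pathway genes named by the rule the change in SUDHL16 minus the change in SUDHL6 differed from 0 in edgeR's interaction test, adjusted over 19621 genes. Of all tested genes 7.16% passed, and the 18 had been picked for a large called change in one of the lines, which favours a difference between them. On the log2 scale the differences were 4.10 for TXNIP (adjusted p = 6.98e-05), 3.59 for SGK1 (5.91e-05), 2.85 for VAV2 (8.64e-05), 2.25 for LYN (0.000181), 2.05 for EIF4EBP1 (0.000929), 1.85 for CR2 (0.00272), 1.73 for INPP5K (0.00744), -3.80 for SGK3 (0.000227) and -4.03 for TCL1B (3.52e-05). These 9 genes were called in SUDHL16, and CR2 and TXNIP in both lines. The difference was 1.73 for SYK (0.002), 1.64 for GAB2 (0.0294), 2.17 for MTCP1 (0.0396) and -1.46 for SESN3 (0.0499), which were called in SUDHL6. All 13 also passed without CE-26. The single fit shares its spread between the lines, so the spread of SUDHL16 may be understated and these p-values too small. The SE of the difference was 0.28 for EIF4EBP1, against 0.32 for its change in SUDHL16 alone, and 0.30 against 0.27 for CR2. Kit and sequencer differed with the line, and their part cannot be told apart from it.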

How the results depend on the processing

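No paired analysis was possible because the labels carry no replicate numbers. For the 8 members, 0 were called in SUDHL6 under each of the 14 alternatives. In SUDHL16, where 0 were called, 2 were called with DESeq2 or the edgeR exact test, 3 with voom or a single fit of 12 libraries and 1 with protein-coding genes only, and 0 to 2 when a library was left out, 2 without CE-26. The difference between the lines passed for 0 members, for 2 with DESeq2 or voom, for 1 with upper-quartile scaling or protein-coding genes only, and for 0 to 3 when a library was left out, 3 without CE-26. Called pathway genes numbered 15 in SUDHL6 and 2 in the single fit, and 10 in SUDHL16, 20 with voom and 21 in the single fit. The cause was not tested. The difference in the share of PIK3CD in SUDHL6, -0.37 percentage points, turned to 0.66 without length correction and 0.26 with canonical length, and ranged from -0.64 to 0.17 when a library was left out, above 0 without CE-8 (p from 0.4 to 1.0, exact permutation test).

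Signs of log2 values turned for 5 members, and the values with the other sign had an adjusted p of at least 0.606. In SUDHL16 the log2 change of PIK3R1 was -0.043 with upper-quartile scaling, -0.155 with voom and -0.011 with protein-coding genes only, and ranged from -0.228 (without CE-26) to 0.262 when a library was left out. AKT1 ranged from -0.415 to 0.038 and FOXO1 from -0.194 to 0.127, and FOXO1 was 0.056 with library totals and 0.059 without a filter. Of the differences between the lines, that of PIK3CA ranged from -0.388 to 0.039 when a library was left out, that of PIK3R1 from -0.374 to 0.1998, that of PIK3AP1 from -0.132 to 0.316 and that of AKT1 from -0.278 to 0.204. PIK3R1 was also 0.019 without a filter, PIK3AP1 -0.015 with upper-quartile scaling and -0.108 with voom, and AKT1 0.020 with library totals and 0.051 without a filter. In SUDHL16 EIF4EBP1 lost its call without CE-25, CE-28, CE-29 or CE-30 (adjusted p = 0.053, 0.0587, 0.0514 and 0.0634) and INPP5K without CE-25, CE-27, CE-29 or CE-30 (adjusted p = 0.0562, 0.0696, 0.088 and 0.0908). Depth limited CE-26 most, with 180 to 461 counts per member.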
